A study of Homo sapiens with 12 samples.

Results

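The comparison described here is 10 nM panobinostat alone against vehicle, each for 6 h, in SK-N-BE(2) cells. It rests on 6 of the 12 arrays of the series, the 3 arrays labelled with panobinostat and the 3 labelled as vehicle control, and on all 14884 genes that could be named, each represented by 1 transcript cluster (the set of probes assigned to 1 transcribed locus). SK-N-BE(2) is an established neuroblastoma line with amplified MYCN, so every array comes from 1 line grown alone, with no stroma and no untreated normal counterpart. The other 6 arrays are 3 of cells given 1 µM JQ1, an inhibitor of the bromodomains of BET proteins, and 3 of cells given both compounds, also for 6 h, and they serve as a second measure of the panobinostat change and as a comparison compound.

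Panobinostat is a hydroxamate that blocks the zinc-dependent histone deacetylases (HDACs) of several classes. Lysine acetyltransferases add acetyl groups to histone tails and deacetylases remove them, and bromodomain and other reader proteins bind the acetylated lysines and bring in the transcription machinery. Blocking the deacetylases raises acetylation across the genome, yet it is known to lower as well as to raise transcripts, and in neuroblastoma such inhibitors are known for effects on cell cycle, cell death and the transcription factors that hold the adrenergic (sympathetic neuron-like) state.

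Levels are the deposited values, read as log2 signal, and a change is a log2 difference ± SE from limma (n = 3 arrays per group), with p-values adjusted by the Benjamini-Hochberg method over all 14884 genes. A gene is called higher or lower, or said to have risen or fallen, at an adjusted p under 0.05. The labels do not say whether the 3 arrays of a group came from separate cultures, so each p-value is set against the spread among these samples alone, and that spread may be only technical. Arrays of 1 group correlated over the genes at 0.9906 to 0.9952, and panobinostat arrays with vehicle arrays at 0.9739 to 0.981. All 14 measured neuroblastoma marker genes lay above the median gene (7.238), whereas 8 of 11 markers of Schwann and stromal cells and 7 of 9 immune cell markers lay below it. The stromal gene LUM was an exception, at 11.80, 11.72 and 11.91 with vehicle. The mean level of the neuroblastoma markers was 10.6 to 10.63 in the vehicle arrays and 10.35 to 10.38 in the panobinostat arrays, that of the stromal markers was 6.905 to 7.008 and 6.975 to 7.103, and that of the immune markers 6.276 to 6.595 and 6.42 to 6.609. In bulk RNA, fewer cells of a kind and less RNA per cell cannot be told apart.

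Panobinostat changed the levels of 4363 genes (29.3% of those tested), 2161 of them higher (14.5%) and 2202 lower (14.8%). At least 2-fold changes were fewer, with 121 genes higher (0.813%) and 176 lower (1.18%). Without the array of each group that stood farthest from the rest of its group (vehicle replicate 1 and panobinostat replicate 1), 213 genes had a called rise of at least 2-fold and 140 such a fall. The split depended on the scale of the arrays: as deposited, 49.5% of the called genes were higher, and after each array was centred on its median 38.4% were (1441 higher and 2310 lower). The median change over all genes was 0.0311 as deposited and -0.022 after that centring. The sign of the median also moved with brightness: with genes split into 5 equal bins of mean signal it was 0.0836 in the dimmest bin and -0.0336 and -0.0216 in the 2 brightest. Calls were more frequent in bright genes. The dimmest bin had 193 genes higher and 46 lower of 2977, and the brightest had 698 and 795 of 2977. Counts of the gene lists below are to be read beside the shares over all genes. Those shares are a low mark for lists of bright genes.

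The largest rises among protein-coding genes above the median level were in genes of unlike function. REEP6, whose product curves endoplasmic reticulum membranes, was at 7.43, 7.15 and 6.95 in the vehicle arrays and at 9.57, 9.84 and 9.92 in the panobinostat arrays, a 6.05-fold rise (2.60 ± 0.15, adjusted p = 6.07e-07). EFNA3, which encodes ephrin-A3, a membrane-bound ligand of EphA receptors, was at 6.77, 6.72 and 6.76 with vehicle and at 9.09, 9.11 and 9.10 with panobinostat (2.35 ± 0.08). CCDC110, a coiled-coil gene whose product is known as a cancer-testis antigen, went from 6.07, 5.92 and 6.21 to 8.05, 8.39 and 8.12 (2.12 ± 0.10). In all 3 genes the lowest panobinostat array lay well above the highest vehicle array. The RefSeq promoter windows of these genes (GRCh38.p14, from 250 bases before to 50 after the transcript start, printed 5′ to 3′ on the gene's strand) are given because the share of windows with 2 short strings of letters is compared below between rising and falling genes. GC boxes (GGGCGG or CCGCCC) and CCAAT boxes (CCAAT or ATTGG) are in capitals. The windows are chr19:1490931-1491230 on the plus strand for REEP6, chr1:155078587-155078886 on the plus strand for EFNA3 and chr4:185471684-185471983 on the minus strand for CCDC110.
REEP6: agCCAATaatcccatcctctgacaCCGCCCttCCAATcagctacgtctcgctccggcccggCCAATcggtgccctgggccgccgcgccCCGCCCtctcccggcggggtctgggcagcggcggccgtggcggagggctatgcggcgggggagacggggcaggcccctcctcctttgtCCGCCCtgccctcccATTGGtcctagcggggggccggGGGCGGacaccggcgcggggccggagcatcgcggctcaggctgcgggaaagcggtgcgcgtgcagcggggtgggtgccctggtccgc
EFNA3: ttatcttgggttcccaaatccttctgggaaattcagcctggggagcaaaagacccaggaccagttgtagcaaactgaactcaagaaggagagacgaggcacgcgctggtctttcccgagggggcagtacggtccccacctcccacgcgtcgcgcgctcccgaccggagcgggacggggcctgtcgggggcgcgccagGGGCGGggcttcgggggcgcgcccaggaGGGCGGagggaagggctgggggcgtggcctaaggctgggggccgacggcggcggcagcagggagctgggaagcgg
CCDC110: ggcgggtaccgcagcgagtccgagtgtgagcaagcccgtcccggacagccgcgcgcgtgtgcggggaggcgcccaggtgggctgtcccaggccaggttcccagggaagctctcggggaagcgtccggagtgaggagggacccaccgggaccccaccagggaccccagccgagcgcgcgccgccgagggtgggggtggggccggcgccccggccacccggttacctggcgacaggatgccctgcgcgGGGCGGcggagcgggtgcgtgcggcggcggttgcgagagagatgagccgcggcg
The REEP6 window holds 4 GC boxes and 4 CCAAT boxes, that of EFNA3 2 GC boxes and no CCAAT box, and that of CCDC110 1 GC box and no CCAAT box.

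HSPA2, a testis-enriched member of the HSP70 chaperones, rose from 8.34, 7.88 and 8.15 to 10.21, 10.06 and 10.36 (2.08 ± 0.13). AHR, the ligand-activated aryl hydrocarbon receptor, rose from 8.25, 8.42 and 8.41 to 10.32, 10.37 and 10.51 (2.04 ± 0.09, 4.11-fold). HYKK, a hydroxylysine kinase, rose by 2.08 ± 0.15, and EFCAB12, an EF-hand protein, by 1.97 ± 0.23. PAIP2B, a repressor of translation that binds poly(A)-binding protein, rose by 1.88 ± 0.17. Kinases were among the next genes, with TEC, a cytoplasmic tyrosine kinase, at 1.76 ± 0.22, TESK2, which phosphorylates the actin regulator cofilin, at 1.73 ± 0.14, and MERTK, a receptor tyrosine kinase of cell engulfment, at 1.69 ± 0.13. STC1, a secreted regulator of calcium and phosphate, rose from 8.34, 8.58 and 8.29 to 10.06, 10.14 and 10.08 (1.69 ± 0.10). GPR155 (1.68 ± 0.17), USP53 (1.68 ± 0.12) and KIAA0513 (1.63 ± 0.11) completed the 15 largest rises. None of the 15 overlapped between the groups, as the rule that chose them required; over all genes the groups did not overlap for 39.8%.

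The largest falls are of genes that, by the rule for naming them, lay at or above the median gene with vehicle and did not overlap between the groups. TFAP2B, a neural crest and sympathoadrenal transcription factor, was at 11.02, 11.25 and 11.02 with vehicle and at 8.77, 8.57 and 8.68 with panobinostat, which is 5.37-fold lower (-2.42 ± 0.09, adjusted p = 8.17e-08). LRRTM1, a leucine-rich repeat synaptic adhesion protein, went from 11.55, 11.61 and 11.59 to 9.67, 9.40 and 9.46 (-2.07 ± 0.11, 4.20-fold lower). TMEM204, a membrane protein gene, went from 9.41, 9.14 and 9.31 to 7.24, 7.25 and 7.67 (-1.90 ± 0.12). ZBTB2, a zinc finger transcription repressor, went from 10.25, 10.01 and 10.08 to 8.20, 8.43 and 8.13 (-1.86 ± 0.11). Promoter windows in the same form are chr6:50818621-50818920 on the plus strand for TFAP2B, chr2:80304703-80305002 on the minus strand for LRRTM1 and chr6:151391510-151391809 on the minus strand for ZBTB2.
TFAP2B: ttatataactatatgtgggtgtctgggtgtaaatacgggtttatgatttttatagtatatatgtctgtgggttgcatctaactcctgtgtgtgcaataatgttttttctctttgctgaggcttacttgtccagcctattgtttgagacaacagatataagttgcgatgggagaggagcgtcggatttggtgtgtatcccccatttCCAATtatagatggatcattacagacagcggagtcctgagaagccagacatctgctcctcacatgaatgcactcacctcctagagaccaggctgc
LRRTM1: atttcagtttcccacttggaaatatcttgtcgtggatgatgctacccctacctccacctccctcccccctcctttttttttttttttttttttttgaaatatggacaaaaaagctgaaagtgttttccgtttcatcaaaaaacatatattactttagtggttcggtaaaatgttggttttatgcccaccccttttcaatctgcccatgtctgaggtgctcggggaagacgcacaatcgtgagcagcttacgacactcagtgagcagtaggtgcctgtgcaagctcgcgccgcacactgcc
ZBTB2: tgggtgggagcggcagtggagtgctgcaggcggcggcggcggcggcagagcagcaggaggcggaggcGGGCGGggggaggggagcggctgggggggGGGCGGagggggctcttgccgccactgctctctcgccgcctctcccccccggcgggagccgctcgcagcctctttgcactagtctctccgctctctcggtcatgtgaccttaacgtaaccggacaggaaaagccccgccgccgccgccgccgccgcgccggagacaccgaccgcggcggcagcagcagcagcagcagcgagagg
TFAP2B and LRRTM1 have windows of 43% and 44.7% G and C with 0 GC boxes each, against 75.3% for REEP6, while the ZBTB2 window (75%) holds 2 GC boxes and no CCAAT box.

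CD200, a surface ligand that restrains myeloid cells, fell from 9.59, 9.66 and 9.44 to 7.78, 7.73 and 7.67 (-1.84 ± 0.10). KEAP1, the sensor that marks the oxidative stress factor NRF2 for degradation, fell from 10.44, 10.16 and 10.44 to 8.65, 8.36 and 8.67 (-1.79 ± 0.13). DKK1, a secreted WNT antagonist, fell from 11.94, 11.69 and 11.85 to 10.05, 9.93 and 10.27 (-1.74 ± 0.14). Subunits of chromatin complexes followed, with EPC2 of the NuA4/TIP60 acetyltransferase complex at -1.71 ± 0.08 and INO80D of the INO80 remodeller at -1.67 ± 0.13. A second, dimmer cluster of INO80D was at -0.12. FBXO8, an F-box protein, was at -1.64 ± 0.08, ZNF362, a zinc finger gene, at -1.61 ± 0.07, and HUNK, a serine/threonine kinase, at -1.61 ± 0.09. FAXC (-1.76 ± 0.08), POPDC2, a cAMP-binding membrane protein (-1.60 ± 0.09), and PYGO1, a nuclear cofactor of WNT signalling (-1.60 ± 0.17), also fell.

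**Figure D1:**
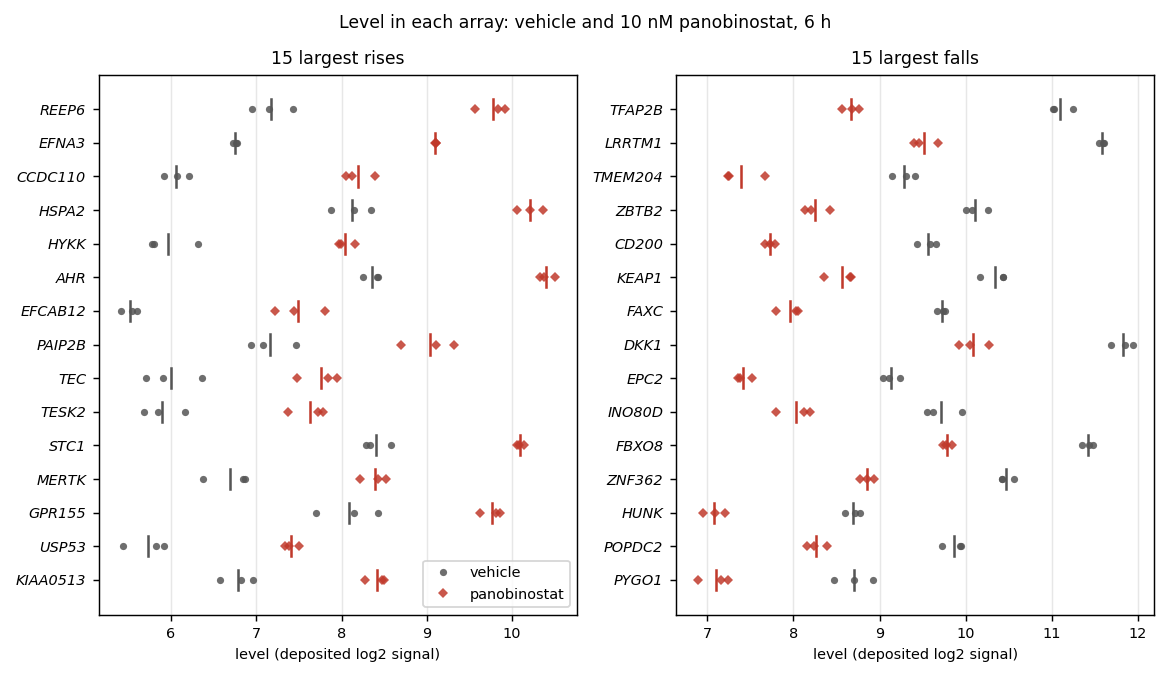
Level of the 15 named genes that rose (left) and 15 that fell (right) the most, in each vehicle (grey circles) and panobinostat (red diamonds) array, with group means as vertical ticks, on the deposited log2 scale. In every row the 3 arrays of one group lie apart from those of the other, with REEP6 at 6.95 to 7.43 against 9.57 to 9.92 and TFAP2B at 11.02 to 11.25 against 8.57 to 8.77.

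Promoter windows were found for 10749 of the genes, and 6 strings of letters were counted in them on both strands: the GC box GGGCGG, the CCAAT box, TATAA, the cyclic AMP response element TGACGTCA, the AP-1 site TGANTCA and the E-box CACGTG. The shares for CCAAT differed most, with a match in 56% of the 91 windows of genes at least 2-fold higher and in 23% of the 139 windows of genes at least 2-fold lower. It was found in 37.7% of the 3175 windows of genes that were not called and had at least the median level, and in 36% of all 10749. GC boxes were in 83.5% of the windows of genes at least 2-fold higher and in 65.5% of those at least 2-fold lower, against 72.9% among bright genes that were not called. Over all genes called higher and lower the shares were 43.8% and 32.1% for CCAAT and 75.4% and 66.3% for GC boxes. E-boxes were in 8.65% of windows of all genes called higher, 12.5% of those called lower and 10.2% of the bright genes not called, and in 7.69% and 12.2% of the 2-fold classes. The other 3 strings gave no one order: the AP-1 string was in 4.41% and 4.37% of all windows called higher and lower, in 1.1% and 2.88% of the 2-fold classes and in 3.31% of the bright genes not called. TATAA was in 12% and 11.3%, in 9.89% and 12.9%, and in 10.5% of the same classes, and TGACGTCA in 3.94% and 2.43%, in 0% and 0.719%, and in 3.72%. A string of letters is not a bound site, and these shares are descriptions.

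The change reached much of the acetylation machinery itself, on the side opposite to the enzymes that panobinostat blocks. Of 28 measured histone acetyltransferases and subunits of their complexes, 22 fell and 2 rose (78.6% and 7.14%, beside 14.8% and 14.5% of all genes), with a median of -0.611 beside 0.0311. Under the alternatives tried the lower count was 20 to 23, and it was 20 without the 2 farthest arrays. In the NuA4/TIP60 complex EPC2 fell from 9.24, 9.12 and 9.04 to 7.36, 7.38 and 7.52, its paralog EPC1 from 8.45, 8.19 and 8.16 to 6.998, 7.07 and 6.90 (-1.28 ± 0.11), and KAT5, the TIP60 enzyme, from 8.80, 8.43 and 8.80 to 7.42, 7.92 and 7.77 (-0.98 ± 0.16). SGF29, a subunit of the SAGA and ATAC complexes that reads methylated histone H3, fell from 10.66, 10.65 and 10.64 to 9.55, 9.32 and 9.46 (-1.21 ± 0.07), and TADA2A, an adaptor of the ATAC complex, fell from 9.69, 9.49 and 9.53 to 8.44, 8.36 and 8.59 (-1.11 ± 0.09). JADE1, a scaffold of the HBO1 complex, fell from 9.54, 9.37 and 9.49 to 8.10, 7.96 and 8.26 (-1.36 ± 0.09). The paralogous coactivators CREBBP (-0.91 ± 0.07) and EP300 (-0.61 ± 0.07) fell as well. The 2 that rose were KAT2B (PCAF), from 6.15, 6.19 and 6.24 to 6.66, 6.77 and 6.81 (0.55 ± 0.08), and the cytoplasmic enzyme HAT1 (0.24 ± 0.07), which was not called after centring of the arrays (adjusted p = 0.171). CREBBP, EP300, KAT5, TADA2A, KAT2B and HAT1 are named here after their values were seen. NCOA1, a nuclear receptor coactivator, was at 0.08 ± 0.08 and not called (adjusted p = 0.536). In the arrays with JQ1 (both compounds minus JQ1), which share none with this comparison, 17 of the 28 fell and 2 rose, with a median of -0.32. Directly against JQ1 the panobinostat arrays were lower for 17 and higher for 1, and JQ1 minus vehicle, which shares the vehicle arrays, had a median of -0.118.

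**Figure D2:**
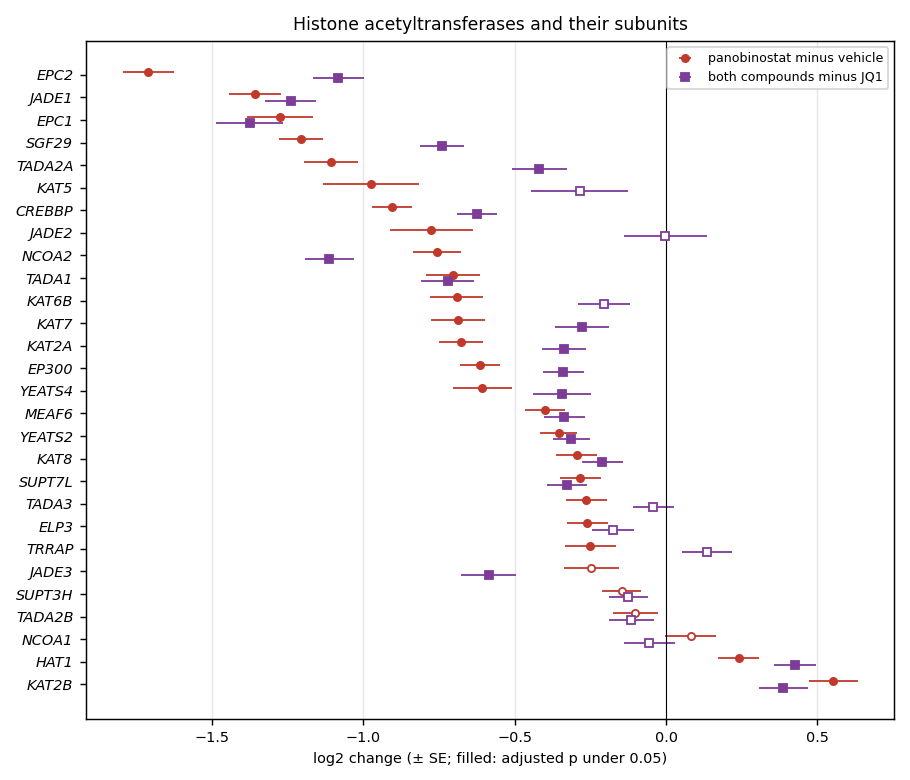
Log2 change of each of the 28 measured acetyltransferases and subunits, for panobinostat minus vehicle (red circles) and for both compounds minus JQ1 (purple squares), with SE bars and filled symbols where the adjusted p was under 0.05. All but NCOA1, HAT1 and KAT2B lie below 0 with panobinostat alone, and EPC2 lies lowest at -1.71.

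The deacetylases themselves changed in both directions. Of 18 HDAC and sirtuin genes 5 rose and 3 fell (27.8% and 16.7%, beside 14.5% and 14.8% of all genes, median 0.109). Called higher were 2 after centring of the arrays, without panobinostat replicate 3 or in a fit of the 6 arrays alone. Without vehicle replicate 2 there were 3, and after quantile normalization 6. SIRT7, a nucleolar sirtuin, rose from 7.998, 7.92 and 7.86 to 8.64, 8.65 and 8.62 (0.71 ± 0.08). HDAC3, the enzyme of the NCoR corepressor, rose from 9.60, 9.28 and 9.19 to 9.75, 9.99 and 10.07 (0.58 ± 0.11). HDAC9, a class IIa enzyme, fell from 8.94, 9.08 and 9.09 to 8.55, 8.42 and 8.45 (-0.57 ± 0.07). HDAC1 was at 0.26 ± 0.07 (adjusted p = 0.0132, and 0.131 after centring), HDAC2 at -0.09 ± 0.07 (adjusted p = 0.413), HDAC8 at -0.17 ± 0.06 (adjusted p = 0.0507) and HDAC10 at 0.34 ± 0.14 (adjusted p = 0.0969). Of 26 corepressor subunits 6 rose and 6 fell (23.1% each). This list was bright (median signal 9.37), and its shares lay near those of the brightest bin of genes (698 higher and 795 lower of 2977). SIN3A, the scaffold of the SIN3 complex, rose from 10.08, 10.01 and 9.88 to 10.75, 10.87 and 10.80 (0.82 ± 0.08). TBL1XR1, the ubiquitin ligase adaptor of NCoR, fell from 10.44, 10.33 and 10.41 to 9.41, 9.53 and 9.44 (-0.94 ± 0.08). After quantile normalization 10 of the 26 were called higher.

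Many nucleosome remodellers and methylation enzymes fell. Over all genes 14.8% fell and 14.5% rose. The remodeller, histone methylation and DNA methylation lists were bright, with median signals of 9.41, 8.83 and 9.31. In the 2 brightest bins of genes 770 and 795 of 2977 fell. Of 18 remodeller genes 11 fell and 0 rose (61.1% lower, median -0.368), with 11 lower and 0 higher also in the arrays with JQ1. At an unadjusted p under 0.05 limma had 0 remodeller genes higher in either. ARID1A, a DNA-binding subunit of the SWI/SNF complex, fell from 9.70, 9.58 and 9.51 to 8.50, 8.54 and 8.61 (-1.05 ± 0.08), and its paralog ARID1B fell from 9.77, 9.96 and 9.85 to 9.13, 8.89 and 8.92 (-0.88 ± 0.09). SRCAP, which deposits the histone variant H2A.Z, was at -0.73 ± 0.06 and BPTF, the large subunit of NURF, at -0.71 ± 0.07. Of 45 histone methylation writers and erasers 21 fell and 6 rose (46.7% and 13.3%, median -0.185). The heterochromatin methyltransferase SUV39H1 fell from 8.96, 9.01 and 8.85 to 7.73, 7.71 and 7.82 (-1.19 ± 0.06), NSD1, which methylates lysine 36 of histone H3, by 1.11 ± 0.09 and KMT5B, which methylates histone H4, by 1.10 ± 0.09. Of the 6 that rose all but SMYD3 were demethylases, and KDM5B, an eraser of methylated lysine 4 (both named after their values were seen, and SMYD3 not called after centring, adjusted p = 0.0859), rose the most, from 9.64, 9.80 and 9.68 to 10.56, 10.54 and 10.58 (0.85 ± 0.07). Among 9 DNA methylation genes 6 fell and 1 rose (66.7% and 11.1%). TET2, which oxidises methylcytosine, fell from 9.68, 9.73 and 9.45 to 8.32, 8.34 and 8.48 (-1.24 ± 0.09). DNMT3A fell by 0.69 ± 0.07, and DNMT3B rose by 0.46 ± 0.12 (limma, adjusted p = 0.0127, and 0.0525 after centring).

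Among 15 BET, P-TEFb and elongation genes 3 rose and 3 fell (20% each, near the 14.5% and 14.8% of all genes). MEPCE, which caps and stabilises the small nuclear RNA that holds P-TEFb inactive, was at 9.87, 9.87 and 9.87 with vehicle and at 8.37, 8.12 and 8.45 with panobinostat (-1.55 ± 0.09, 2.93-fold lower). HEXIM1, the protein inhibitor of P-TEFb in the same particle, rose from 8.08, 8.02 and 8.04 to 8.53, 8.49 and 8.43 (0.44 ± 0.06), although its second, dimmer cluster was at -0.40 and the mean of both clusters at 0.016, and HEXIM2 fell by 0.60 ± 0.10. Of 47 RNA polymerase II, Mediator and Integrator genes 11 rose and 11 fell (23.4% each), with 4 higher after centring, 7 higher without vehicle replicate 2 or panobinostat replicate 3, and 7 lower without the 2 farthest arrays. INTS3, an Integrator subunit, fell by 0.65 ± 0.06, and MED21, a Mediator subunit, rose by 0.51 ± 0.06.

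The transcription factors of the adrenergic neuroblastoma state were mostly lower. Of 26 measured, 19 fell and 1 rose (73.1% and 3.85%, median -0.462), and in the arrays with JQ1 21 fell and 0 rose (23 and 0 at an unadjusted p under 0.05 in limma). Beside TFAP2B, TBX3 fell from 11.29, 11.33 and 11.32 to 9.92, 9.84 and 10.02 (-1.38 ± 0.07) and GATA3, a core factor of sympathetic neuron identity, from 11.73, 11.82 and 11.74 to 10.80, 10.71 and 10.65 (-1.04 ± 0.07). HAND2, another member of that core, fell from 11.86, 11.77 and 11.77 to 10.67, 10.79 and 10.90 (-1.01 ± 0.07). For GATA3 and TBX3, JQ1 minus vehicle was at 0.28 and -0.20. MEIS2, a homeobox cofactor, fell by 1.11 ± 0.06 in its brighter cluster and by 0.95 in the other. The 1 that rose was SOX4 (0.29 ± 0.07), named after its value was seen, and EYA1 was at 0.11 ± 0.12 (adjusted p = 0.553). Of 23 genes of the mesenchymal state 5 rose and 4 fell, with 3 higher without vehicle replicate 1, without panobinostat replicate 2 or without the 2 farthest arrays. SOX9, a neural crest factor, rose from 8.04, 8.33 and 8.12 to 9.29, 9.18 and 9.09 (1.02 ± 0.10), and TWIST1 fell from 9.80, 9.39 and 9.31 to 8.28, 8.78 and 8.80 (-0.88 ± 0.16).

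Products of the adrenergic state changed in both directions. Of 7 genes of catecholamine synthesis and transport 2 rose and 3 fell (28.6% and 42.9%, beside 14.5% and 14.8% of all genes). GCH1, which makes the cofactor of tyrosine hydroxylase, rose from 9.01, 9.18 and 8.81 to 9.87, 9.96 and 9.79 (0.87 ± 0.09), DBH fell by 0.42 ± 0.07 and TH, tyrosine hydroxylase, by 0.24 ± 0.06. Among 31 secretory vesicle genes 8 rose and 6 fell (25.8% and 19.4%), with 5 higher after centring or in a fit of the 6 arrays alone. The median signal of this list was 8.34. In the bin of genes from 7.783 to 9.045, 584 of 2977 rose and 770 fell. SYN1, a synaptic vesicle phosphoprotein, rose from 9.87, 9.66 and 9.59 to 10.65, 10.62 and 10.52 (0.89 ± 0.13), whereas SCG2, a granin of dense core vesicles, fell from 11.27, 11.02 and 10.99 to 10.10, 10.27 and 10.20 (-0.91 ± 0.08). Of 41 axon guidance genes 10 rose and 6 fell (24.4% and 14.6%, median 0.152). EFNA4, an ephrin ligand like EFNA3, rose from 6.82, 7.24 and 7.29 to 8.76, 8.34 and 8.86 (1.54 ± 0.17), and SLIT2, a secreted repellent, from 6.81, 6.67 and 6.996 to 8.13, 8.33 and 8.29 (1.43 ± 0.11). Of the netrin receptors, UNC5D rose by 1.03 ± 0.13. Of 34 leucine-rich repeat and synaptic adhesion genes 7 fell and 3 rose (20.6% and 8.82%, beside 14.8% and 14.5% of all genes, median 0.0463), with LRRC4 at -1.15 ± 0.13 and LRFN4 at -0.84 ± 0.13 after LRRTM1.

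In each of the cell cycle lists more genes fell than rose, by modest amounts. The shares lower were 50% (G1 to S), 47.7% (mitosis), 43.5% (replication) and 32.4% (repair), beside 14.8% of all genes. These lists were bright, with median signals of 9.08, 10.3, 10.5 and 9.35. In the brightest bin of genes 795 of 2977 fell, and the repair share lay nearest to that. Of 22 cyclin and E2F genes of the G1 to S step 11 fell and 5 rose (3 rose after centring). CCND1, cyclin D1, fell from 11.61, 11.64 and 11.71 to 11.00, 10.76 and 10.82 (-0.80 ± 0.08), and E2F7, a repressor of the E2F family, from 8.72, 8.82 and 8.71 to 8.10, 8.06 and 8.03 (-0.69 ± 0.07). CCNE1, cyclin E1, went the other way, from 7.97, 7.87 and 7.88 to 8.73, 8.92 and 8.82 (0.92 ± 0.10). Of 44 mitotic genes 21 fell and 3 rose (median -0.196). PLK1, the mitotic kinase, fell from 11.85, 12.09 and 11.92 to 11.35, 11.26 and 11.05 (-0.73 ± 0.10) and KIF15, a spindle kinesin, by 0.64 ± 0.07, while TOP2A was at 0.03 ± 0.06 (adjusted p = 0.739). Of 23 replication genes 10 fell and 2 rose, the latter being GINS4 (0.87 ± 0.11) and the licensing factor CDC6 (0.55 ± 0.08). TYMS, thymidylate synthase, fell from 10.56, 10.53 and 10.54 to 9.68, 9.62 and 9.62 (-0.90 ± 0.06). Of 34 DNA repair genes 11 fell and 0 rose (15 and 0 at an unadjusted p under 0.05 in limma), with 6 lower without the 2 farthest arrays and 7 without vehicle replicate 1. NBN, which senses double-strand breaks, fell from 9.73, 9.71 and 9.52 to 8.44, 8.57 and 8.56 (-1.13 ± 0.10).

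Among regulators of cell death, more anti-apoptotic genes fell than rose, and more pro-apoptotic genes rose than fell. The shares were 58.3% lower and 8.33% higher for the first, and 6.25% lower and 43.8% higher for the second. Over all genes they were 14.8% lower and 14.5% higher, and both list counts depended on the arrays and their scale. Of 12 anti-apoptotic genes 7 fell and 1 rose (4 fell without vehicle replicate 1, without panobinostat replicate 1, without both, or in a fit of the 6 arrays alone), and of 16 pro-apoptotic genes 7 rose and 1 fell (4 rose after centring or without vehicle replicate 3). BCL2 fell from 10.25, 10.09 and 10.13 to 9.003, 8.93 and 8.97 (-1.19 ± 0.09), the caspase-8 inhibitor CFLAR by 0.85 ± 0.10 and BCL2L1 by 0.75 ± 0.11. Among the activators BMF, a BH3-only protein, rose from 7.59, 7.56 and 7.83 to 8.50, 8.44 and 8.48 (0.81 ± 0.10), APAF1, the core of the apoptosome, from 8.70, 8.58 and 8.52 to 9.20, 9.60 and 9.45 (0.81 ± 0.11), and BNIP3L, a mitophagy receptor, by 0.64 ± 0.06. BID was the exception at -0.62 ± 0.07. Of 17 p53 target genes 10 rose and 2 fell (58.8% higher, median 0.498). SESN3, a sestrin of the stress response, rose from 9.21, 9.04 and 9.19 to 10.34, 10.56 and 10.56 (1.34 ± 0.08), and TP53INP1 by 0.93 ± 0.12. This list also had a median of 0.506 with JQ1 minus vehicle, in which the vehicle arrays are shared. Panobinostat minus JQ1 called 0 of the 17 higher and 4 lower (1 and 5 at an unadjusted p under 0.05 in limma), and in the arrays with JQ1 3 rose and 3 fell (median 0.0472). TP53I3, a quinone oxidoreductase, fell by 0.86 ± 0.07.

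RNA processing and translation genes fell in part. Over all genes 14.8% fell and 14.5% rose. The splicing, mitochondrial ribosome and MYC target lists were bright, with median signals of 10.1, 9.23 and 10.3. In the brightest bin of genes (9.046 to 13.3) 795 of 2977 fell and 698 rose. Of 55 splicing factors and hnRNP genes 29 fell and 4 rose (52.7% and 7.27%, median -0.223), and panobinostat minus JQ1 called 26 lower and 2 higher. The splicing activator SRSF4 fell from 9.56, 9.39 and 9.53 to 8.80, 8.64 and 8.90 (-0.71 ± 0.10) and PTBP2, the neuronal splicing repressor, from 9.56, 9.36 and 9.40 to 8.68, 8.87 and 8.67 (-0.70 ± 0.08). Of 73 mitochondrial ribosome genes 32 fell and 2 rose (43.8% and 2.74%, median -0.203), in which MRPL15 (-0.76 ± 0.08) and MRPS35 (-0.73 ± 0.10) fell the most. By contrast 4 of 53 cytosolic ribosomal protein genes fell and 1 rose, and of 24 respiratory chain genes limma called 0, with 1 lower and 0 higher at an unadjusted p under 0.05. Of 21 MYC targets of biosynthesis 8 fell and 2 rose (38.1% and 9.52%). Without the 2 farthest arrays or in a fit of the 6 arrays alone 5 were lower. PUS7, a pseudouridine synthase, was at -0.54 ± 0.06 and PPAT, an enzyme of purine synthesis, at 0.63 ± 0.06. MYC was dim, at 6.03, 6.32 and 6.17 with vehicle and 6.52, 6.07 and 6.52 with panobinostat, and was not called (0.20, adjusted p = 0.286), although without panobinostat replicate 2 it was at 0.34 and called (adjusted p = 0.0351). Of 9 oncofetal RNA-binding protein genes 4 fell (44.4%) and 0 rose (5 and 1 at an unadjusted p under 0.05 in limma). LIN28B, which blocks let-7 maturation, fell from 9.09, 8.93 and 9.12 to 7.38, 7.56 and 7.60 (-1.53 ± 0.10, 2.89-fold lower). IGF2BP3 fell from 8.47, 8.35 and 8.39 to 7.38, 7.17 and 7.35 (-1.10 ± 0.10). The count of 7 lower among 25 tRNA synthetase and ATF4 target genes was not stable, at 2 to 4 without any 1 array and at 1 without the 2 farthest arrays or in a fit of the 6 arrays alone.

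Of 18 heat shock and chaperone genes 6 rose and 0 fell (33.3% higher beside 14.5% of all genes, median -0.0349; 2 were lower at an unadjusted p under 0.05 in limma): after HSPA2 these were HSPA1A (0.72 ± 0.07) and HSPA1B (0.70 ± 0.07), near-identical genes whose signals the array may not separate, HSPA4L (0.48 ± 0.09), BAG3 (0.48 ± 0.10) and HSPA14 (0.34 ± 0.06), the last named after its value was seen. The heat shock list was bright, with a median signal of 9.82. In the brightest bin of genes (9.046 to 13.3), 698 of 2977 were called higher. Of 10 metallothionein genes 2 rose (20%), and MT2A went from 8.68, 8.66 and 8.56 to 9.30, 9.07 and 9.35 (0.61 ± 0.09). In the NRF2 and antioxidant list of 21, AHR rose and 3 fell, KEAP1, PRDX3 (-0.38 ± 0.07) and GSR, glutathione reductase (-0.30 ± 0.07), so that 17 were not called. Of 26 genes of endoplasmic reticulum stress and shape 7 rose and 5 fell (26.9% and 19.2%). Beside REEP6, SEL1L, a subunit of the degradation channel, rose by 0.62 ± 0.07, whereas ATL1 and ATL3, atlastins that fuse reticulum tubules, fell by 1.13 ± 0.08 and 0.61 ± 0.08. Of 23 immediate early genes 7 rose and 0 fell (30.4% higher, median 0.179; 11 higher and 0 lower at an unadjusted p under 0.05 in limma). EGR1 rose from 9.62, 9.23 and 9.36 to 10.52, 10.50 and 10.48 (1.10 ± 0.12) and IER5 from 8.34, 8.01 and 7.96 to 8.97, 8.89 and 8.88 (0.81 ± 0.12). Panobinostat minus JQ1 called 8 of these 23 lower and 3 higher, and the median with JQ1 minus vehicle was 0.394.

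Signalling lists mixed rises and falls. The shares higher and lower were 8.7% and 43.5% (TGF-beta and BMP), 30% and 6.67% (NOTCH) and 21.9% and 9.38% (WNT). They were 22.6% each for phosphatase and MAP kinase genes and 23.3% and 20% for growth factor receptors. Over all genes they were 14.5% and 14.8%. In the TGF-beta and BMP list of 23, 10 fell and 2 rose (6 fell without the 2 farthest arrays or in a fit of the 6 arrays alone, and 5 without panobinostat replicate 2). BMP4, a ligand, rose from 7.52, 7.28 and 7.46 to 8.53, 8.58 and 8.81 (1.22 ± 0.12), while downstream SMAD9 fell from 10.85, 10.99 and 10.97 to 10.17, 10.13 and 10.16 (-0.79 ± 0.07), SMAD1 by 0.74 ± 0.15 and SMAD6, an inhibitor of the pathway, by 1.20 ± 0.14. Of 30 NOTCH genes 9 rose and 2 fell (5 rose without the 2 farthest arrays). JAG1, a ligand, rose from 6.91, 6.90 and 6.97 to 7.91, 8.03 and 8.08 (1.08 ± 0.08) and the receptor NOTCH1 from 7.11, 7.35 and 7.15 to 7.85, 7.71 and 7.66 (0.54 ± 0.10). In the WNT list of 32, 7 rose and 3 fell (4 rose after centring, without the 2 farthest arrays or in a fit of the 6 arrays alone), with the R-spondin receptor LGR4 at 0.71 ± 0.13 and the receptor FZD3 at -0.46 ± 0.08 beside DKK1. Of 31 dual-specificity phosphatase and MAP kinase genes 7 rose and 7 fell: DUSP10, which acts on p38 and JNK, rose from 8.84, 8.41 and 8.74 to 9.69, 9.83 and 9.91 (1.14 ± 0.11), and DUSP16, which acts on JNK, fell from 9.95, 9.89 and 9.82 to 8.91, 8.76 and 8.75 (-1.08 ± 0.09). Among 30 growth factor receptor genes 7 rose and 6 fell. GFRA2, the neurturin receptor, fell from 8.84, 9.07 and 8.91 to 7.94, 7.84 and 7.93 (-1.04 ± 0.08) and EGFR by 0.69 ± 0.09, FGFR2 rose by 0.64 ± 0.09, and ALK, a neuroblastoma oncogene, was at 0.41 ± 0.16 (adjusted p = 0.0792), and was called without dim genes (adjusted p = 0.0447) and with a trended robust prior (0.0398).

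For the next lists the shares higher and lower were 37% and 22.2% (sterol), 36.4% and 9.09% (nuclear receptors) and 30% and 6.67% (autophagy). They were 25% and 16.7% for the immune list, beside 14.5% and 14.8% of all genes. Of 27 sterol and fatty acid genes 10 rose and 6 fell (6 rose after centring or without vehicle replicate 3), among them STARD4, a cholesterol carrier, which went from 9.73, 9.62 and 9.64 to 10.45, 10.65 and 10.49 (0.87 ± 0.09), and MVK, mevalonate kinase (0.68 ± 0.06). Of 11 nuclear receptor genes 4 rose and 1 fell. PPARA rose from 7.16, 7.06 and 6.84 to 7.86, 8.13 and 8.24 (1.05 ± 0.11) and PPARD from 9.19, 9.11 and 8.998 to 10.03, 10.04 and 9.96 (0.91 ± 0.09), both fatty acid-sensing receptors. Of 30 autophagy and lysosome genes 9 rose and 2 fell, led by NEU1, lysosomal sialidase, which went from 8.43, 8.27 and 8.20 to 9.19, 9.34 and 9.35 (0.99 ± 0.08). In the immune list of 24, 6 rose and 4 fell: the chemokine gene CCL2 fell from 8.64, 8.56 and 8.999 to 6.99, 7.31 and 7.70 (-1.40 ± 0.18), the dim ULBP1, a ligand of the natural killer cell receptor NKG2D, rose from 5.41, 4.66 and 5.54 to 6.32, 6.38 and 6.81 (1.30 ± 0.21), and the chemokine receptor CXCR4 rose by 0.84 ± 0.13. Of 25 cancer-testis genes 2 rose and 2 fell (8% each), and of 23 neuronal cytoskeleton genes 3 rose and 1 fell (13% and 4.35%). Among 16 glycolysis and hypoxia genes 4 rose and 3 fell (25% and 18.8%). Of 40 ZBTB zinc finger genes 16 fell and 3 rose (40% and 7.5%, median -0.169). ZBTB8A fell from 9.13, 8.89 and 8.93 to 7.46, 7.40 and 7.45 (-1.55 ± 0.11), and ZBTB8B, of the same family, rose from 6.55, 6.41 and 6.98 to 7.75, 7.78 and 7.96 (1.18 ± 0.16). The 471 ZNF genes had a median of 0.00429, with 68 higher and 88 lower (14.4% and 18.7%).

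Lists of genes reported from other systems to respond to HDAC inhibitors were written with earlier results of these data known. Their counts are therefore descriptions and not an independent check. Over all genes 14.5% rose and 14.8% fell. Of 31 reported to rise, 17 rose and 0 fell (54.8%, median 0.377; 19 and 0 at an unadjusted p under 0.05 in limma), and 11 rose in a fit of the 6 arrays alone. DHRS2, a dehydrogenase often induced by such inhibitors, rose from 6.74, 6.40 and 6.06 to 7.29, 7.16 and 7.51 (0.92 ± 0.25, adjusted p = 0.0142, and 0.0609 and 0.0519 without vehicle replicate 3 and panobinostat replicate 3). With JQ1 present it rose by 2.15, and the difference between these 2 rises was not called (interaction 1.23, limma, adjusted p = 0.137). Of 23 reported to fall, 18 fell and 1 rose (78.3% and 4.35%, median -0.439), among them MYB (-0.90 ± 0.16).

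**Figure D3:**
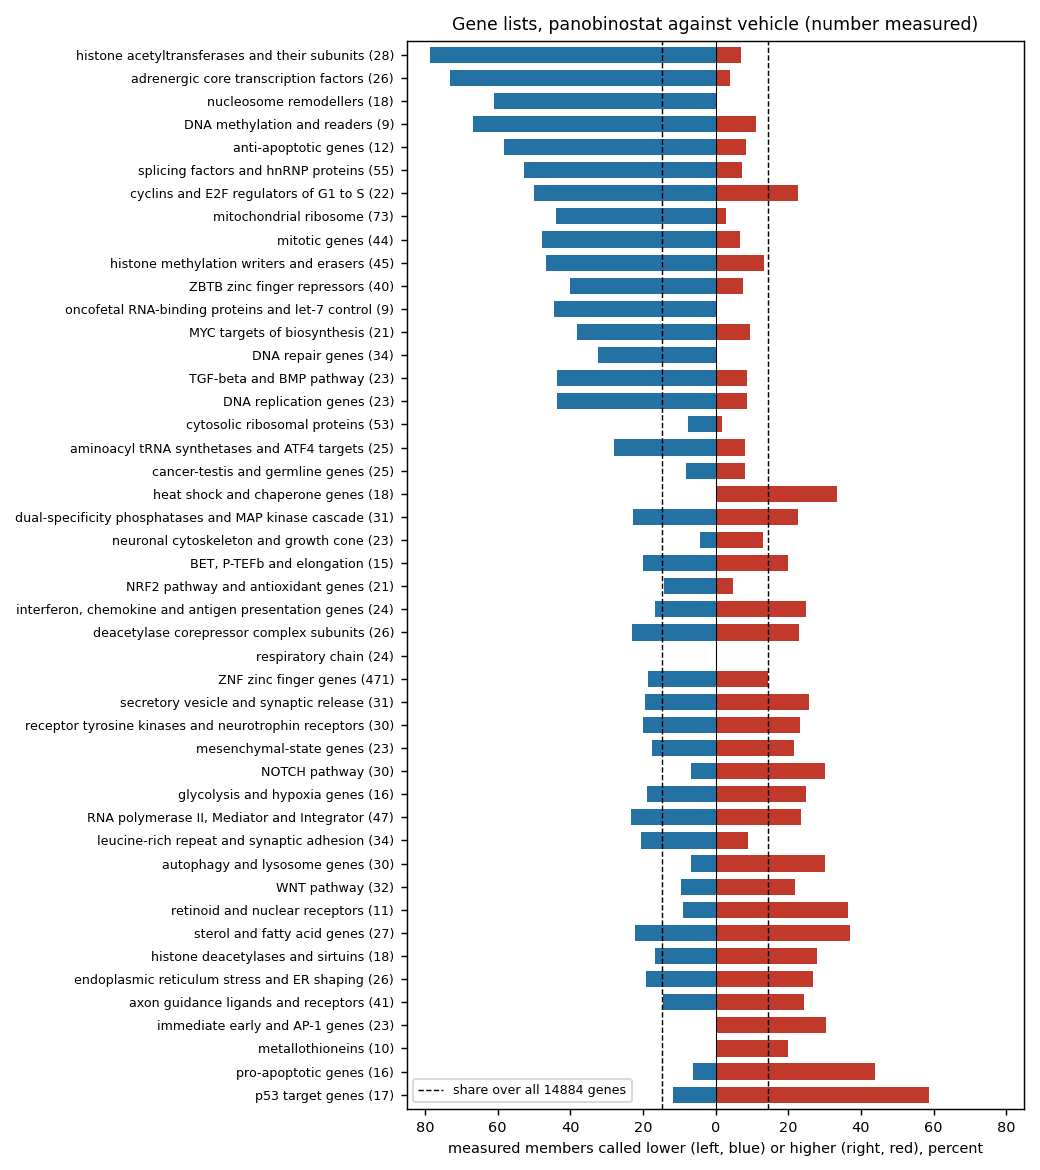
For gene lists with at least 9 measured members, share of members called lower (blue, left) and higher (red, right) with panobinostat, ordered by the median change of the list, with the number measured in brackets and dashed lines at the shares over all 14884 genes (14.8% lower and 14.5% higher). Acetyltransferases are at the top with 78.6% lower, and p53 targets at the bottom with 58.8% higher.

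The arrays with JQ1 gave a measure of the same compound that shares no array with the comparison above. Both comparisons did share a shift in replicate 1. Its median over all clusters was 6.119 (vehicle) and 6.148 (JQ1), against 6.292 (panobinostat) and 6.247 (both compounds). In the other arrays the median ran from 6.187 to 6.225. What this shift added to the shares below was not tested. Without vehicle and panobinostat replicate 1, 1334 genes were called higher and 1194 lower in both comparisons. Of the 2161 genes called higher, 1972 (91.3%) were higher also in both compounds minus JQ1 and 1281 (59.3%) were called higher there. Of the 2202 called lower, 2115 (96%) were lower and 1459 (66.3%) were called lower. Over all genes 51% were higher and 49% lower in that comparison, which called 1744 higher (11.7%) and 2072 lower (13.9%). The 1281 are 73.5% of the genes it called higher, and the 1459 are 70.4% of those it called lower. All 176 genes at least 2-fold lower and 119 of 121 at least 2-fold higher kept their direction, and 159 and 110 of them were called. Their changes were smaller, with a median of 0.892 against 1.18 for the rises and -0.873 against -1.17 for the falls, and these genes were picked by their size in the first comparison. CCDC110 was alike in both at 2.12 and 2.11, EFNA3 was at 2.35 and 1.90, TFAP2B at -2.42 and -2.07, and CD200 at -1.84 and -1.95.

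**Figure D4:**
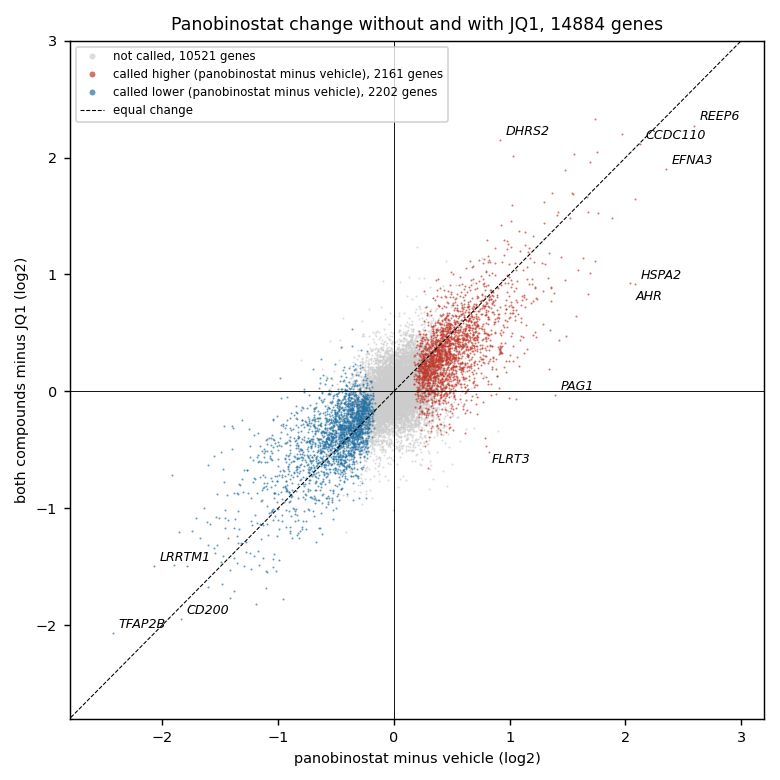
Each of the 14884 genes by its log2 change with panobinostat alone (x axis, panobinostat minus vehicle) and with JQ1 present (y axis, both compounds minus JQ1), coloured by its call in the first, with a dashed line of equal change. Most called genes lie in the quadrants of equal sign (1972 of 2161 higher and 2115 of 2202 lower), and PAG1 (1.39 and -0.04) and FLRT3 (0.80 and -0.47) lie away from the line.

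The panobinostat change differed with JQ1 present for 113 genes (0.759%) by the interaction term of the fit, with 46 positive (0.309%) and 67 negative (0.45%). This number depended on the arrays, and without combination replicate 2 it was 14 and 14. PAG1, an adaptor that holds Src kinases in check, went from 8.59, 8.05 and 8.30 with vehicle to 9.54, 9.64 and 9.94 with panobinostat (1.39 ± 0.13), whereas panobinostat added to JQ1 gave -0.04 (interaction -1.43, adjusted p = 0.011). FLRT3, a leucine-rich repeat adhesion protein, rose with panobinostat alone, from 8.71, 8.30 and 8.13 to 9.06, 9.11 and 9.36 (0.80 ± 0.14), and fell with JQ1 present (-0.47). HSPA2 (2.08 and 0.92), SESN3 (1.34 and 0.19) and AHR (2.04 and 0.92) gave smaller rises with JQ1 present. JQ1 minus vehicle was 1.11, 1.43 and 1.47 for these 3 genes and 2.02 for PAG1. Falls that were smaller with JQ1 present were those of RD3, a retinal protein (-1.39 and -0.31), NHSL2 (-1.56 and -0.56), PRDM10, a zinc finger factor (-1.50 and -0.52), and POPDC2 (-1.60 and -0.63), and JQ1 minus vehicle was between -1.79 and -1.20 for these 4. The second cluster of RD3 was at -0.13 with panobinostat. MAP2K6, an activator of p38, was not called with panobinostat alone (0.20 ± 0.08, adjusted p = 0.0912, and 0.0325 without the 2 farthest arrays) and rose by 1.24 with JQ1 present. For this gene JQ1 minus vehicle was -0.85. In all, 24 genes were called in opposite directions in the 2 settings, ARRDC3 (0.30 and -0.66) and PCDH18 (0.40 and -0.37) among those that changed from a rise to a fall and NXN (-0.45 and 0.38) among those that changed from a fall to a rise, names picked after their values were seen.

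**Figure D5:**
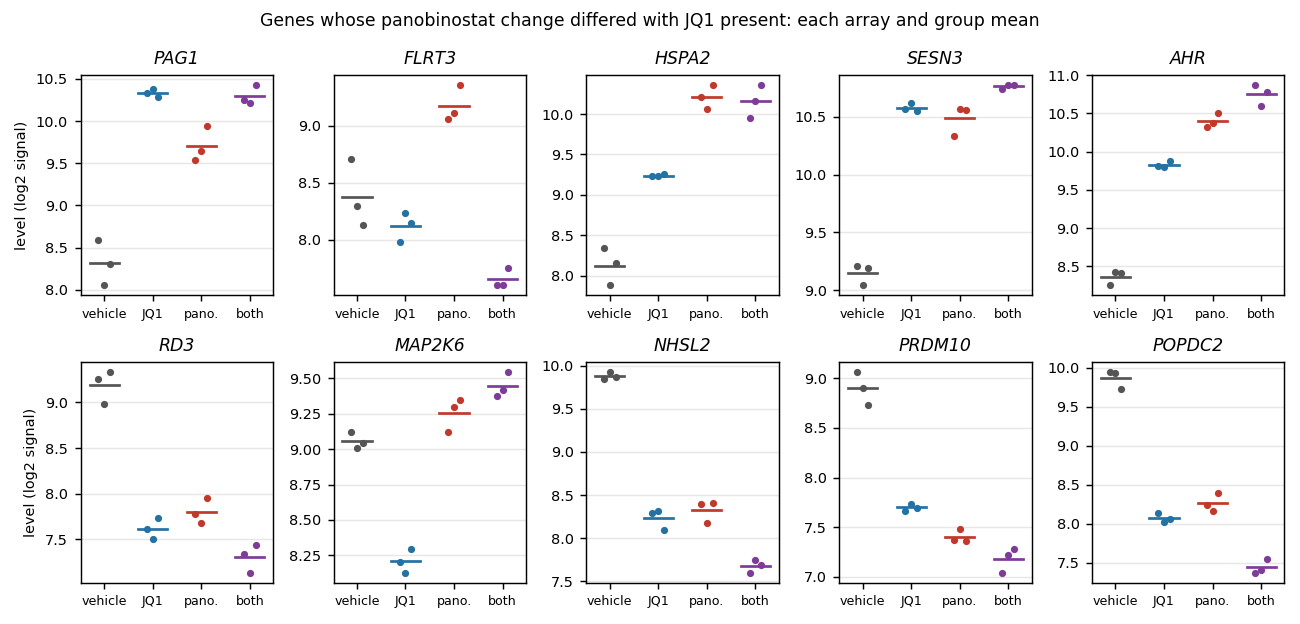
Level in each array (points) and group mean (bars) of the 10 genes with the largest called interaction, in vehicle, JQ1, panobinostat and combined treatment, on the deposited log2 scale; each panel has its own axis. PAG1, SESN3 and AHR are above vehicle in all treated groups, and RD3, NHSL2, PRDM10 and POPDC2 are below it in all.

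Against JQ1 directly, panobinostat left 1732 genes higher and 1729 lower (11.6% each). This comparison shares its panobinostat arrays with the comparison against vehicle. PI15, a secreted protease inhibitor, differed the most, 2.24 ± 0.12 higher than with JQ1, since it rose by 0.83 with panobinostat and was at -1.41 with JQ1. CCDC110 (2.07), EFCAB12 (2.00), EFNA3 (1.99) and TEC (1.77) were next, and JQ1 minus vehicle was 0.06, -0.03, 0.36 and -0.02 for these genes. The largest falls against JQ1 were MEPCE (-2.01), SGF29 (-1.68), PATZ1, a zinc finger repressor (-1.58), NPTXR, a neuronal pentraxin receptor (-1.53), and HMGN2, a nucleosome-binding protein (-1.49). For these genes JQ1 minus vehicle was 0.46, 0.48, 0.09, 1.10 and 0.37. NPTXR was at -0.43 with panobinostat minus vehicle. PATZ1 went from 9.16, 9.16 and 9.02 with vehicle to 7.75, 7.63 and 7.50 with panobinostat (-1.49 ± 0.09). HEXIM1 was lower with panobinostat than with JQ1 (-1.41, limma, adjusted p = 3.34e-07), and was above vehicle with both, by 0.44 with panobinostat and 1.85 with JQ1. LRRTM1 and DKK1, among the largest falls from vehicle, were at -0.19 and -0.01 against JQ1 and not called (adjusted p = 0.232 and 0.979).

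Noncoding genes were dimmer than coding ones, and fewer were called. Of 1398 long noncoding RNA genes 116 were higher and 113 lower (8.3% and 8.08%), beside 16.2% and 17.1% of 11916 protein-coding genes, and the median signal was 5.96 and 7.65. MIR7-3HG, host of a miR-7 hairpin, went from 6.91, 6.68 and 6.61 to 8.44, 8.59 and 8.39 (1.74 ± 0.10) and rose by 2.33 with JQ1 present. Its interaction was not called (limma, adjusted p = 0.0853). ERCC6L2-AS1 (0.91 ± 0.13) and LOC730101 (0.90 ± 0.13) followed. LINC01761 (-1.47 ± 0.17), BOLA3-DT (-1.46 ± 0.21) and FBXL19-AS1 (-1.40 ± 0.17) had the largest falls, of which BOLA3-DT alone was called with JQ1 present (-1.17). The interaction was called for none of these falls (limma, adjusted p = 0.0559, 0.738 and 0.0626). The SNAR genes are a multicopy family of small RNAs with near-identical members that count as uncertain. Of these 8 genes 4 were higher and 0 lower (50% higher, beside 14.5% of all genes). At an unadjusted p under 0.05 in limma 5 were higher and 0 lower. Their median was 0.492, and 0.566 with JQ1 present.

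MicroRNA genes, measured here through their hairpin or host transcript and not as mature strands, were dim (median 5.3) and had 82 of 1072 higher and 24 lower (7.65% and 2.24%, median 0.091). With JQ1 present their median was 0.00604. The lean towards higher was not stable outside a region of chromosome 14 that is described at the end. Without the 2 farthest arrays the 1024 other microRNA genes had 48 higher and 31 lower, with a median of -8.5e-05. The mature sequences of the 3 largest rises and 3 largest falls are given to show which seeds (bases 2 to 8, in capitals) these loci encode, and no 2 of them share one.
hsa-miR-3144-5p: aGGGGACCaaagagauauauag
hsa-miR-3144-3p: aUAUACCUguucggucucuuua
hsa-miR-635: aCUUGGGCacugaaacaaugucc
hsa-miR-300: uAUACAAGggcagacucucucu
hsa-miR-3671: aUCAAAUAaggacuagucugca
hsa-miR-548am-3p: cAAAAACUgcaguuacuuuugu
hsa-miR-421: aUCAACAGacauuaauugggcgc
MIR3144 (chr6:120015191-120015212 for the 5p strand) was at 3.77, 2.95 and 3.38 with vehicle and 4.57, 5.27 and 4.98 with panobinostat (1.57 ± 0.25), all below the median microRNA gene. MIR635 (chr17:68424511-68424533) rose from 4.46, 4.72 and 4.74 to 6.24, 6.05 and 5.90 (1.42 ± 0.16) and by 1.53 with JQ1 present. MIR300 (chr14:101041414-101041435) rose from 5.60, 5.28 and 5.33 to 6.04, 7.11 and 6.74 (1.22 ± 0.29). MIR3671 (chr1:65057762-65057783) fell from 7.46, 6.82 and 6.76 to 5.29, 6.16 and 6.06 (-1.18 ± 0.25), and its second cluster was at -0.95. MIR548AM (chrX:16627019-16627040), of a large repeated family and so uncertain, was close to the floor of the arrays (mean 2.90) and fell by 1.17 ± 0.17, with another of its clusters at -0.21. MIR421 (chrX:74218392-74218414) fell from 6.60, 6.49 and 6.57 to 5.50, 5.73 and 5.65 (-0.92 ± 0.16) and by 0.81 with JQ1 present.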

How the data were processed

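Total RNA of SK-N-BE(2) cells was hybridised to Affymetrix Human Gene ST arrays, 3 per group in 4 groups, per the labels' protocols. The deposited values of 53617 transcript clusters were taken as log2 signal, because they run from 1.391 to 14.1 and the log base is not stated; the submitters' processing notes name MAS5 and affy with no role. MAS5 in its usual form needs mismatch probes, which these arrays lack, so what was done to make the values is uncertain, and the background correction and software versions were not stated there. The number of arrays limits the precision. Clusters with 1 gene name (16098, through the platform annotation) were reduced to 14884 genes by keeping, per gene, the cluster whose mean over the 12 arrays was highest, and 37519 clusters without a name were left out.

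One limma fit (version 3.58.1, R 4.3.3) held the 4 groups, with no block, 8 residual degrees of freedom, and Benjamini-Hochberg adjustment over all genes. Contrasts were panobinostat minus vehicle, both compounds minus JQ1, their difference (the interaction), panobinostat minus JQ1 and JQ1 minus vehicle. An exact permutation test of 3 arrays against 3 cannot go below p = 0.1 and was not used. The code was tested on simulated data.

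Named genes were the 15 largest rises and 15 largest falls that were protein-coding, called, without overlap between the groups and with the higher group mean at or above 7.238 (the median gene). Added to these were 5 per direction for panobinostat minus JQ1 and for the interaction, up to 4 called members and 1 not called per list, 3 per direction of noncoding and microRNA genes, and a few fixed genes; others are said to be chosen after their values were seen. The members and gene lists were chosen with earlier results of these data known. Alternatives were the centring of arrays, quantile and cyclic loess normalization, leaving out dim genes, a replicate block, the mean of a gene's clusters, a trended robust prior, the arrays of the contrast alone, and leaving out arrays; cyclic loess and leaving out the 2 farthest arrays together were chosen after seeing the data.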

Additional observations from a re-analysis of the deposited data

Results flagged for a closer look

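For 113 genes the panobinostat change with JQ1 present differed from the change without it in the interaction test of limma. Among the named genes the interaction was positive for RD3 (1.08), MAP2K6 (1.04), NHSL2 (0.999), PRDM10 (0.977) and POPDC2 (0.973). It was negative for PAG1 (-1.43), FLRT3 (-1.27), HSPA2 (-1.17), SESN3 (-1.15) and AHR (-1.11). HSPA2 and FLRT3 missed the threshold without combination replicate 2 (adjusted p = 0.0553 and 0.0545), and RD3 without the 2 farthest arrays (adjusted p = 0.0537). Of the 37519 transcript clusters without a gene name, 2300 differed between panobinostat and vehicle, 1149 higher and 1151 lower, with a median signal of 5.83.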

How the results depend on the processing

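Of 185 genes whose panobinostat change is printed, 168 kept their direction and their side of the threshold under all 15 alternatives. TOP2A turned to -0.022 after each array was centred, and DLK1 ran from -0.15 to 0.098 with 1 array left out, above 0 (0.054 and 0.098) without vehicle replicate 2 or panobinostat replicate 3; neither gene was called. The interaction counts (46 higher and 67 lower) moved the most: 18 and 23 after centring, 104 and 209 after quantile normalization, 92 and 115 after cyclic loess, 111 and 148 without dim genes, and 127 and 197 with a trended robust prior. After centring, 1088 genes were higher with panobinostat than with JQ1 (1732 as reported), and 826 were called higher both alone and with JQ1 present (1281 as reported). Without the 2 farthest arrays 213 genes were at least 2-fold higher (121 as reported). The cause of these shifts was not tested.

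With 1 array left out, panobinostat against vehicle gave 1810 to 2072 genes higher and 1832 to 2026 lower, and 105 to 157 and 140 to 195 at least 2-fold. With JQ1 present there were 1345 to 1587 higher and 1543 to 1866 lower, against JQ1 1334 to 1526 and 1227 to 1524, and in both settings 1034 to 1286 and 1164 to 1382. The interaction had 14 to 34 higher and 14 to 56 lower, fewest without combination replicate 2. Of 50 list counts 17 moved by over 1.5 times in at least 1 alternative.

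Replicate numbers did not pair the arrays: the deviations of same-numbered panobinostat and vehicle arrays correlated at -0.693, -0.108 and -0.158. A fit with the replicate number as a block gave 1917 genes higher and 1982 lower, 1475 and 1776 with JQ1 present, 1428 and 1443 against JQ1, 1092 and 1276 in both settings, and 19 and 29 for the interaction. Under this block ALK was called higher (adjusted p = 0.00521) and the interaction of FLRT3 was not called (adjusted p = 0.0591). Dim signal limits the microRNA and noncoding genes.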

Other observations

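The microRNA genes that rose included many of the imprinted DLK1 to MEG3 region of chromosome 14, a group noticed after its values were seen and described here with no test. The array measures 48 microRNA genes there, at GRCh38.p14 chr14:100814491-101066801. With panobinostat 18 of these 48 were called higher and 0 lower by limma (24 and 0 at an unadjusted p under 0.05), and 47 of 48 lay above 0, with a median of 0.371. The other 1024 microRNA genes had 64 higher and 24 lower and a median of 0.0748. Without the 2 farthest arrays these others had 48 higher and 31 lower and a median of -8.5e-05. The mean level over the 48 genes was 5.311, 5.316 and 5.26 in the vehicle arrays and 5.617, 5.91 and 5.692 in the panobinostat arrays, so the groups did not overlap. MIR889 rose by 1.13 ± 0.17, MIR544A by 1.06 and MIR539 by 0.89. Of the longer transcripts of the region, MEG3 rose by 0.46 ± 0.14 (limma, adjusted p = 0.0305), MEG9 by 0.42 and RTL1 by 0.36, while DLK1 was at -0.06 (adjusted p = 0.855). These 3 calls were not stable. RTL1 lost its call in 11 of 15 alternatives and was at 0.21 without vehicle replicate 1 and 0.18 without the 2 farthest arrays. MEG3 lost its call in 7, among them the centring of arrays and leaving out panobinostat replicate 2 (0.32, adjusted p = 0.12), and MEG9 was at 0.20 and not called with the mean of its clusters. All of these genes but MIR300 and the members of fixed lists were named after their values were seen.

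The rise was smaller in the arrays that share none with this comparison. In both compounds minus JQ1, limma called 0 of the 48 higher and 0 lower (4 and 1 at an unadjusted p under 0.05), 35 lay above 0, and the median was 0.114. The interaction was called for 0 of them after adjustment, and at an unadjusted p under 0.05 it was lower for 11 and higher for 0. Without the 2 farthest arrays 13 were called higher and 0 lower, with a median of 0.414. Their median signal of 5.57 is below that of the median gene, and neighbouring hairpins are cut from shared transcripts, so the 48 are not separate measurements.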
